A study of Mus musculus with 7 samples.

Results

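The 4 Notch receptors of the mouse (Notch1, Notch2, Notch3 and Notch4), their 5 DSL ligands (Dll1, Dll3, Dll4, Jag1 and Jag2) and the receptor-modifying enzyme Lfng were followed in whole embryos with and without SLMAP3, a tail-anchored membrane protein of the STRIPAK complex. The members were picked by gene symbol with no filter on their values, though earlier results of these data were known. All 10 were found among the 25461 genes of the deposited expression table. RNA was sequenced from 7 embryos of the B6C3F1 strain at E11.5, 3 of them SLMAP3 knockouts (KO) and 4 wildtype (WT). The KO allele is a floxed Slmap allele that had been cleaved by CMV-cre, and in the breeding without cre it was passed on through crosses of heterozygous mice, so that the loss is global and not confined to a tissue. Each library came from 1 embryo whose tail had been cut off for genotyping. The embryo names carry the labels KOAC8, KOAC9 and KOAC10, whose meaning the labels do not explain, and p-values measure the spread between single embryos that may share a litter.

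Notch signaling passes between touching cells: a ligand of the Delta or Jagged family on one cell binds a Notch receptor on its neighbor, the receptor is cut by ADAM proteases and by γ-secretase, and its freed intracellular domain enters the nucleus and joins the DNA-binding protein RBPJ to switch on genes such as those of the Hes and Hey families. In the midgestation embryo the pathway keeps neural progenitors from differentiating, shapes arteries and paces the segmentation of the mesoderm into somites. The expression of the members was read here in whole bodies, where fewer cells of a type and less RNA per cell cannot be told apart.

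In the KO embryos the ligands Dll3, Dll4 and Jag1, the receptor Notch4 and the fringe enzyme Lfng each had higher values than in any WT embryo, by 1.15- to 1.32-fold in the means. None of the 10 genes passed the test over all genes (limma, adjusted p under 0.05), a threshold that 6 of the 16095 genes tested passed (0.0373%). At an unadjusted p under 0.05 these same 5 genes were higher in the KO embryos and 0 were lower, where 5.27% of all genes tested were higher and 6.19% were lower (11.5% in either direction). The KO values lay above all WT values for 5 of the 10 members and for 5.61% of all genes tested. The difference was positive for 8 of the 10 genes, with a median of 0.21 on the log2(FPKM + 1) scale, and for 53.1% of all genes tested, whose median was 0.01.

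The 10 genes are protein-coding and lie at 10 separate places in the genome (GRCm38, GENCODE M21). The receptor genes are Notch1 at chr2:26457903-26516663 (minus strand), Notch2 at chr3:98013527-98150361 (plus), Notch3 at chr17:32120820-32166852 (minus) and Notch4 at chr17:34564268-34588503 (plus). The ligand genes are Dll1 at chr17:15367354-15376872 (minus), Dll3 at chr7:28293553-28302238 (minus), Dll4 at chr2:119325784-119335962 (plus), Jag1 at chr2:137081456-137116644 (minus) and Jag2 at chr12:112907819-112929776 (minus). Lfng lies at chr5:140607320-140615545 (plus).

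The start regions of the genes are shown before the values, since the members are both producers and, in part, known targets of the signal. The windows ran from 250 bases before to 50 bases after each annotated start (RefSeq, GRCm38.p6), and all 10 members matched, with 11 windows. They were searched on both strands for TGGGAA, the core of the RBPJ site, and for the E-boxes CAGCTG and CAGATG, which are bound by basic helix-loop-helix factors such as the proneural proteins. No 2 of the matches printed overlap. TGGGAA was found in 1 of the 11 member windows, that of Lfng, and in 25.6% of all 32851 windows. CAGCTG was found in 4 member windows and in 16.3% of all windows, and CAGATG in 0 member windows and in 17.1% of all windows. The window of Lfng holds CAGCTG once more, at its start. A match describes letters in a window and not a bound site.

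The stretch before the first exon of Lfng on chr5:140607091-140607319 (plus strand) holds an E-box followed by a pair of RBPJ cores on opposite strands, at 135 and 108 bases before the start, shown here in capitals:
Lfng: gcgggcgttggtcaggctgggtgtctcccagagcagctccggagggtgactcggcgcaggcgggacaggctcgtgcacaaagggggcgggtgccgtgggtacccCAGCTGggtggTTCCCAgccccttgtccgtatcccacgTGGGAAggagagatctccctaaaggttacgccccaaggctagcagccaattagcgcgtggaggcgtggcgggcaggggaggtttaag

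By the GENCODE positions given above, Dll3 and Jag1 begin further upstream than by RefSeq, so that their E-boxes lie inside the GENCODE genes. The E-boxes of the ligand genes, in capitals, lie 132 bases before the RefSeq start of Dll1 (chr17:15377047-15377076, minus strand), 7 before that of Dll3 (chr7:28301775-28301804, minus strand) and 82 before that of Jag1 (chr2:137116585-137116614, minus strand). Each is shown in the direction of the gene:
Dll1: tgcattaccataCAGCTGagcgcacaaaga
Dll3: tccggcatccagCAGCTGcgactcctgaga
Jag1: ccgcgtttcatgCAGCTGatctgaaaggga

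For comparison, the windows of Nrarp and Hes5, both known targets of the pathway, were searched too. That of Nrarp holds CAGCTG, 32 bases after its start, and no TGGGAA. That of Hes5, a classical RBPJ target, holds TGGGAA on both strands. The matches lie at 226 bases before its start (chr4:154960685-154960714, reverse letters) and at 82 bases before it (chr4:154960829-154960858), both shown on the plus strand of the genome:
Hes5 distal: agggcgagcgcgTTCCCAcagcccggacat
Hes5 proximal: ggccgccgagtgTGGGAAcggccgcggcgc

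The depth was not given with the table. From the steps between low FPKM values and the deposited mean signal, it was estimated at 54300000 to 82000000 counts on genes per embryo. The counts behind a member were then about 514 to 1062 for Dll4, the lowest, and about 13263 to 19494 for Notch3, the highest. Slmap, of which SLMAP3 is 1 of several products, stood at 16.0 to 19.6 FPKM in the KO embryos and 22.8 to 31.2 FPKM in the WT embryos (log2 fold change of -0.59, SE 0.13, adjusted p = 0.278, limma). The liver and yolk sac genes other than Ttr set 3 embryos apart. Afp was at 1.30 to 5.18 FPKM in the KO embryo KOAC10-5 and the WT embryos KOAC10-7 and KOAC10-2, and at 255 to 376 FPKM in the other 4.

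By their mean FPKM in the WT embryos, a scale per length of transcript, the 10 genes ran in the order Notch1, Dll1, Notch3, Lfng, Notch4, Notch2, Dll3, Jag2, Jag1 and Dll4. The first 3 were not separated from each other, as their WT ranges of 23.6 to 56.3, 24.9 to 33.7 and 24.6 to 30.7 FPKM overlapped. The next 6 formed a chain in which each gene's WT range overlapped that of its neighbor, from Lfng (15.8 to 17.6 FPKM) to Jag1 (11.7 to 12.7 FPKM). Dll4 stood below the others in every embryo, at 2.54 to 4.25 FPKM.

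**Figure D1:**
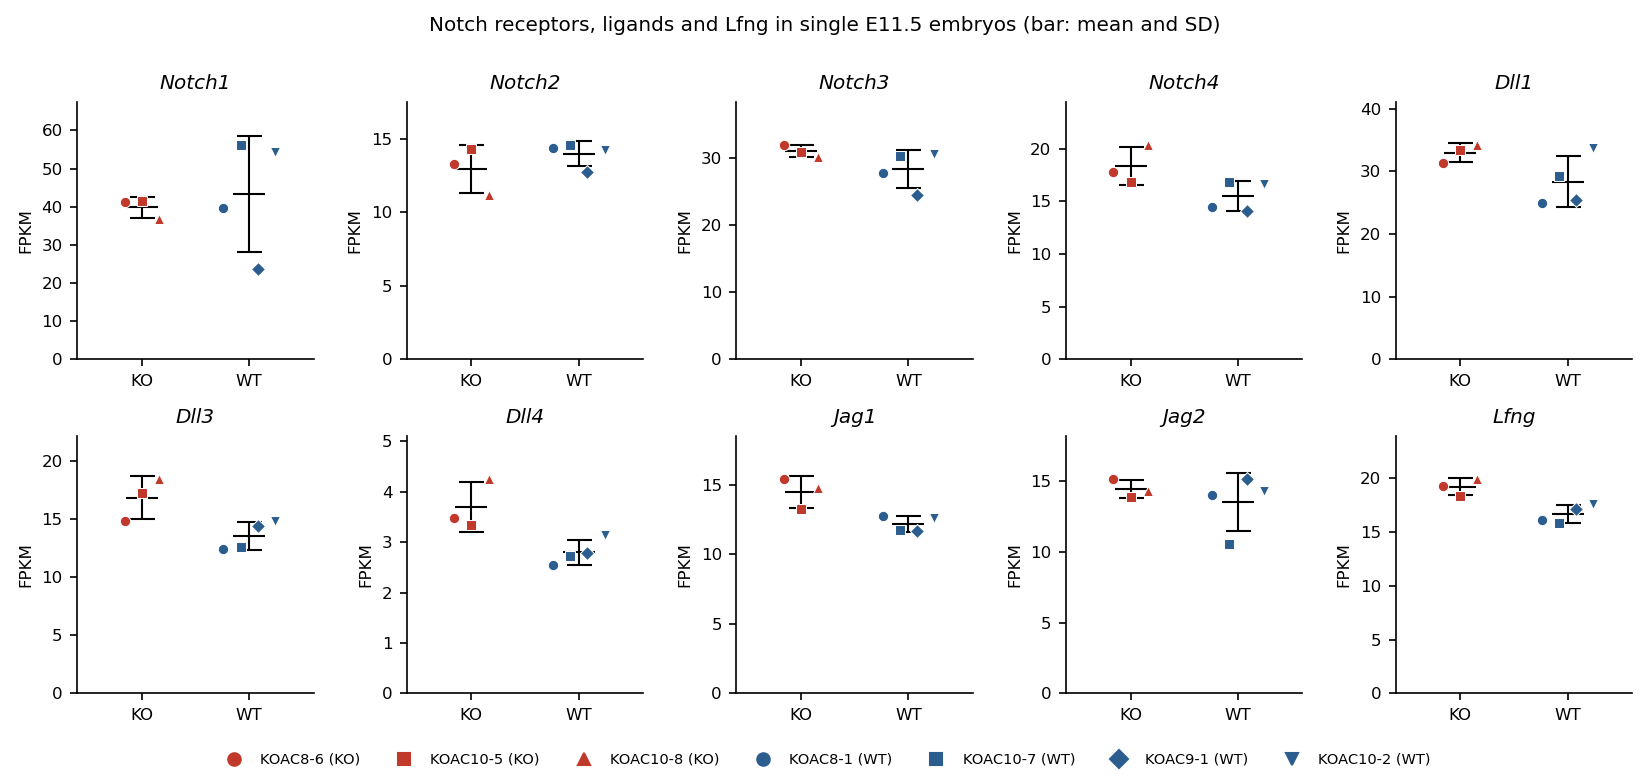
Each panel plots the FPKM of 1 gene (vertical axis, from 0) in the 3 KO embryos (red) and the 4 WT embryos (blue), 1 symbol per embryo, with the mean and SD in black. For Notch4, Dll3, Dll4, Jag1 and Lfng every red symbol lies above every blue one, narrowly so for Notch4 and Dll3, while Notch1 spreads from 23.6 to 56.3 FPKM among the WT embryos.

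Among the receptors, Notch1, the receptor of most embryonic Notch functions including those in neural progenitors and arteries, measured 41.3, 41.6 and 36.7 FPKM in the KO embryos KOAC8-6, KOAC10-5 and KOAC10-8. In the WT embryos KOAC8-1, KOAC10-7, KOAC9-1 and KOAC10-2 it reached 39.6, 56.3, 23.6 and 54.3 FPKM. The WT embryos thus lay on both sides of the KO embryos, and the highest was 2.39-fold above the lowest. The means were 39.9 ± 2.73 (SD, n = 3) and 43.4 ± 15.2 FPKM (SD, n = 4), and the log2 fold change of -0.05 (SE 0.28) had a 95% interval from -0.72 to 0.62 (limma, adjusted p = 0.963). No direction could be given for Notch1: between the embryos labeled KOAC10, 2 of each genotype, the difference in mean log2(FPKM + 1) was -0.49, and between the 2 labeled KOAC8 it was 0.06. A gene on the opposite strand, 0610009E02Rik, overlaps Notch1 and was at 1.09 to 1.55 FPKM, and reads from both strands cannot be told apart in these unstranded libraries.

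Notch2, a receptor that acts in the vasculature, kidney and liver among other organs, measured 13.3, 14.4 and 11.2 FPKM in KO and 14.4, 14.6, 12.8 and 14.3 FPKM in WT embryos, in the same order as for Notch1. KOAC10-8 was the lowest embryo, and the groups overlapped. The means were 12.9 ± 1.62 and 14.0 ± 0.838 FPKM (SD), and the log2 fold change was -0.11 (SE 0.09, limma, adjusted p = 0.655). Of the stretches of 50 bases in its transcripts, 3.75% also occur in the transcripts of Gm42820, which was itself at no more than 0.296 FPKM.

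Notch3, the receptor of arterial smooth muscle and pericytes that is also made by neural progenitors, measured 32.1, 30.9 and 30.2 FPKM in KO and 27.8, 30.3, 24.6 and 30.7 FPKM in WT embryos. A pair of WT embryos from KOAC10 reached the KO range, while KOAC8-1 and KOAC9-1 lay below it. The log2 fold change was 0.13 (SE 0.08, limma, adjusted p = 0.558).

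Notch4, a receptor largely confined to endothelium, measured 17.8, 16.9 and 20.4 FPKM in KO and 14.5, 16.9, 14.1 and 16.6 FPKM in WT embryos. All KO values were higher, but the lowest, 16.89 FPKM in KOAC10-5, was almost level with the highest WT value, 16.88 FPKM in KOAC10-7. With means of 18.4 ± 1.83 and 15.5 ± 1.43 FPKM (SD), the log2 fold change was 0.23 (SE 0.09), with an unadjusted p of 0.0422 and an adjusted p of 0.421 (limma). By the exact permutation test over the 35 ways to choose 3 of 7 embryos, p was 0.0571 (two-sided).

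Among the ligands, Dll1, which signals in the segmenting mesoderm and to neural progenitors, measured 31.3, 33.4 and 34.3 FPKM in KO and 24.9, 29.3, 25.5 and 33.7 FPKM in WT embryos. The WT embryo KOAC10-2 lay inside the KO range and the other 3 below it. The means were 33.0 ± 1.55 and 28.3 ± 4.08 FPKM (SD), and the log2 fold change was 0.22 (SE 0.11, limma, adjusted p = 0.481).

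Dll3, a divergent ligand that does not activate the receptors in trans and is needed for somite segmentation, measured 14.9, 17.3 and 18.5 FPKM in KO and 12.5, 12.6, 14.4 and 14.8 FPKM in WT embryos. The groups did not overlap, though KOAC8-6 at 14.86 FPKM and the WT embryo KOAC10-2 at 14.83 FPKM were almost level. The log2 fold change was 0.29 (SE 0.10, unadjusted p = 0.0179, adjusted p = 0.358, limma). The exact permutation test gave p = 0.0286, the smallest value that 3 against 4 embryos allow.

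Dll4, the ligand of arterial and sprouting endothelium that is also found in spinal cord interneurons, measured 3.47, 3.34 and 4.25 FPKM in KO and 2.54, 2.72, 2.78 and 3.13 FPKM in WT embryos. The groups were apart, with KOAC10-8 highest. Its means, 3.69 ± 0.494 and 2.79 ± 0.249 FPKM (SD), differed by 1.32-fold, more than those of any other member. The log2 fold change was 0.30 (SE 0.10, unadjusted p = 0.0161, adjusted p = 0.354, limma). Since 1 is added to every FPKM before the logarithm, this value understates the ratio for a gene at so low a level. Gm14207 overlaps Dll4 on the opposite strand. It was at 0.957, 0.922 and 1.15 FPKM in KO and 0.428, 0.880, 0.855 and 0.727 FPKM in WT embryos. Its groups were thus apart as well, with KOAC10-8 highest. The part of Gm14207 in the Dll4 values was not tested.

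Jag1, the ligand of inner ear, heart outflow tract, smooth muscle and liver bile duct development, measured 15.4, 13.2 and 14.8 FPKM in KO and 12.7, 11.8, 11.7 and 12.6 FPKM in WT embryos. The groups were apart, and here KOAC8-6 was the highest embryo. The means were 14.5 ± 1.13 and 12.2 ± 0.550 FPKM (SD), and the log2 fold change was 0.23 (SE 0.07, 95% interval 0.07 to 0.39, unadjusted p = 0.0122, adjusted p = 0.345, limma).

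Jag2, the ligand of limb, palate and thymus development, measured 15.2, 13.9 and 14.3 FPKM in KO and 14.1, 10.55, 15.2 and 14.3 FPKM in WT embryos. Apart from KOAC10-7, the lowest, the WT embryos lay among the KO embryos. The log2 fold change was 0.10 (SE 0.12, limma, adjusted p = 0.758), and it became -0.00370 without KOAC10-7.

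Lfng (lunatic fringe), a Golgi glycosyltransferase that adds a sugar to the fucose on Notch and thereby favors its response to Delta over Jagged ligands, measured 19.2, 18.4 and 19.9 FPKM in the KO embryos. In the WT embryos it reached 16.1, 15.8, 17.2 and 17.6 FPKM, below every KO embryo. The means were 19.2 ± 0.789 and 16.7 ± 0.856 FPKM (SD), and the log2 fold change was 0.19 (SE 0.06, 95% interval 0.05 to 0.33, unadjusted p = 0.0136, adjusted p = 0.347, limma). Dll3, Dll4, Jag1 and Lfng each reached the exact permutation p of 0.0286.

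The differences of these 5 genes were also taken within the labels of the embryos, where their sign is fixed by groups that do not overlap. For Dll4 the log2 difference was 0.34 between the KO and WT embryo of KOAC8 and 0.28 between the embryos of KOAC10. The same values were 0.26 and 0.18 for Jag1, 0.24 and 0.19 for Lfng, 0.23 and 0.36 for Dll3, and 0.28 and 0.14 for Notch4. With the label as a block in the fit, Dll3, Dll4, Jag1 and Lfng had an unadjusted p under 0.05 and Notch4 no longer did. In that fit 8.69% of all genes had such a p. KOAC9 holds 1 WT embryo and gave no value.

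Single embryos moved the count of 5 genes. KOAC10-8 was the highest of the 7 embryos for Notch4, Dll1, Dll3, Dll4 and Lfng. It also had the largest sum of FPKM over all genes, 861448 against 770063 to 813357 in the other 6 embryos. With the values rescaled to a common sum it stayed highest for Notch4 and Dll4, while KOAC10-5 was highest for Dll1 and Dll3 and KOAC8-6 for Lfng, and the same 5 genes had groups that did not overlap. Without KOAC10-8, Jag1 and Lfng alone had an unadjusted p under 0.05, where 7.80% of all genes did so. Without the 3 embryos of low Afp, the KO embryos KOAC8-6 and KOAC10-8 and the WT embryos KOAC8-1 and KOAC9-1 were left. The genes were then Dll1, Dll4, Jag1 and Notch4, where 10.78% of all genes had such a p. In this small fit the log2 fold change of Notch1 became 0.34, with KOAC9-1 its lowest embryo at 23.6 FPKM. With Afp as a covariate there were 6 such genes, the 5 and Dll1, where 11.7% of all genes had such a p. An unadjusted p under 0.05 was found in all 17 alternatives for Jag1, in 16 for Lfng, in 14 for Dll3, in 11 for Notch4 and, for Dll4, in 15 of the 16 that tested it.

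**Figure D2:**
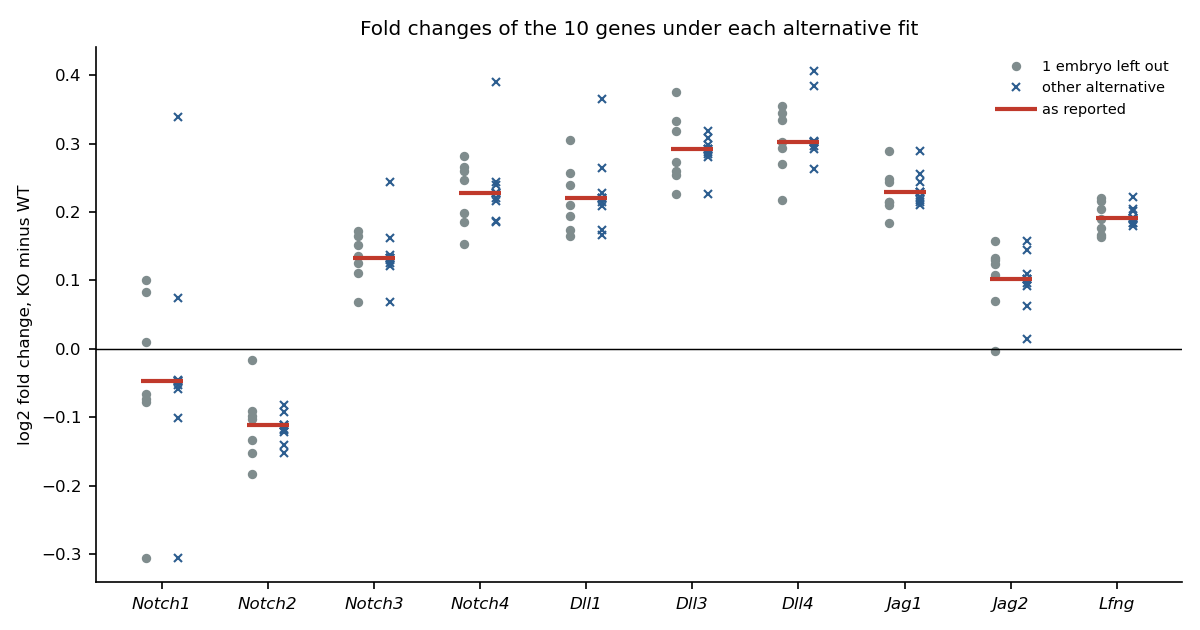
For each gene (horizontal axis) the plot gives the difference between KO and WT embryos in log2(FPKM + 1) (vertical axis) as reported (red bar), with 1 embryo left out (gray dots) and under the other alternatives (blue crosses). The values of Notch1 run from -0.31 to 0.34 across 0, while those of Dll3, Dll4, Jag1 and Lfng stay between 0.16 and 0.41.

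Over the 7 embryos, the highest Pearson correlations of log2(FPKM + 1) between members were 0.94 for Dll4 and Lfng and 0.90 for Dll3 and Dll4, and the lowest was -0.72 for Notch2 and Dll4. These are descriptions over 7 embryos that include the genotypes, with the same libraries behind both genes of a pair.

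The other genes of the pathway were then listed by role, 44 in all, of which 40 passed the filter of a mean of 1 FPKM. None passed the test over all genes (limma, lowest adjusted p = 0.286). At an unadjusted p under 0.05, 5 were higher in the KO embryos (Hes1, Hes5, Hey1, Nrarp and Dtx4) and 0 were lower. Of all genes tested, 5.27% were higher and 6.19% were lower. The difference was positive for 22 and negative for 18 of the 40, with a median of 0.01, the same as that of all genes to 2 decimals. The KO values lay above all WT values for 6 of them (Poglut1, Numb, Dtx3, Nrarp, Hes1 and Hey1) and below all WT values for 2 (Furin and Numbl). The shares of all genes tested were 5.61% above and 5.98% below.

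**Figure D3:**
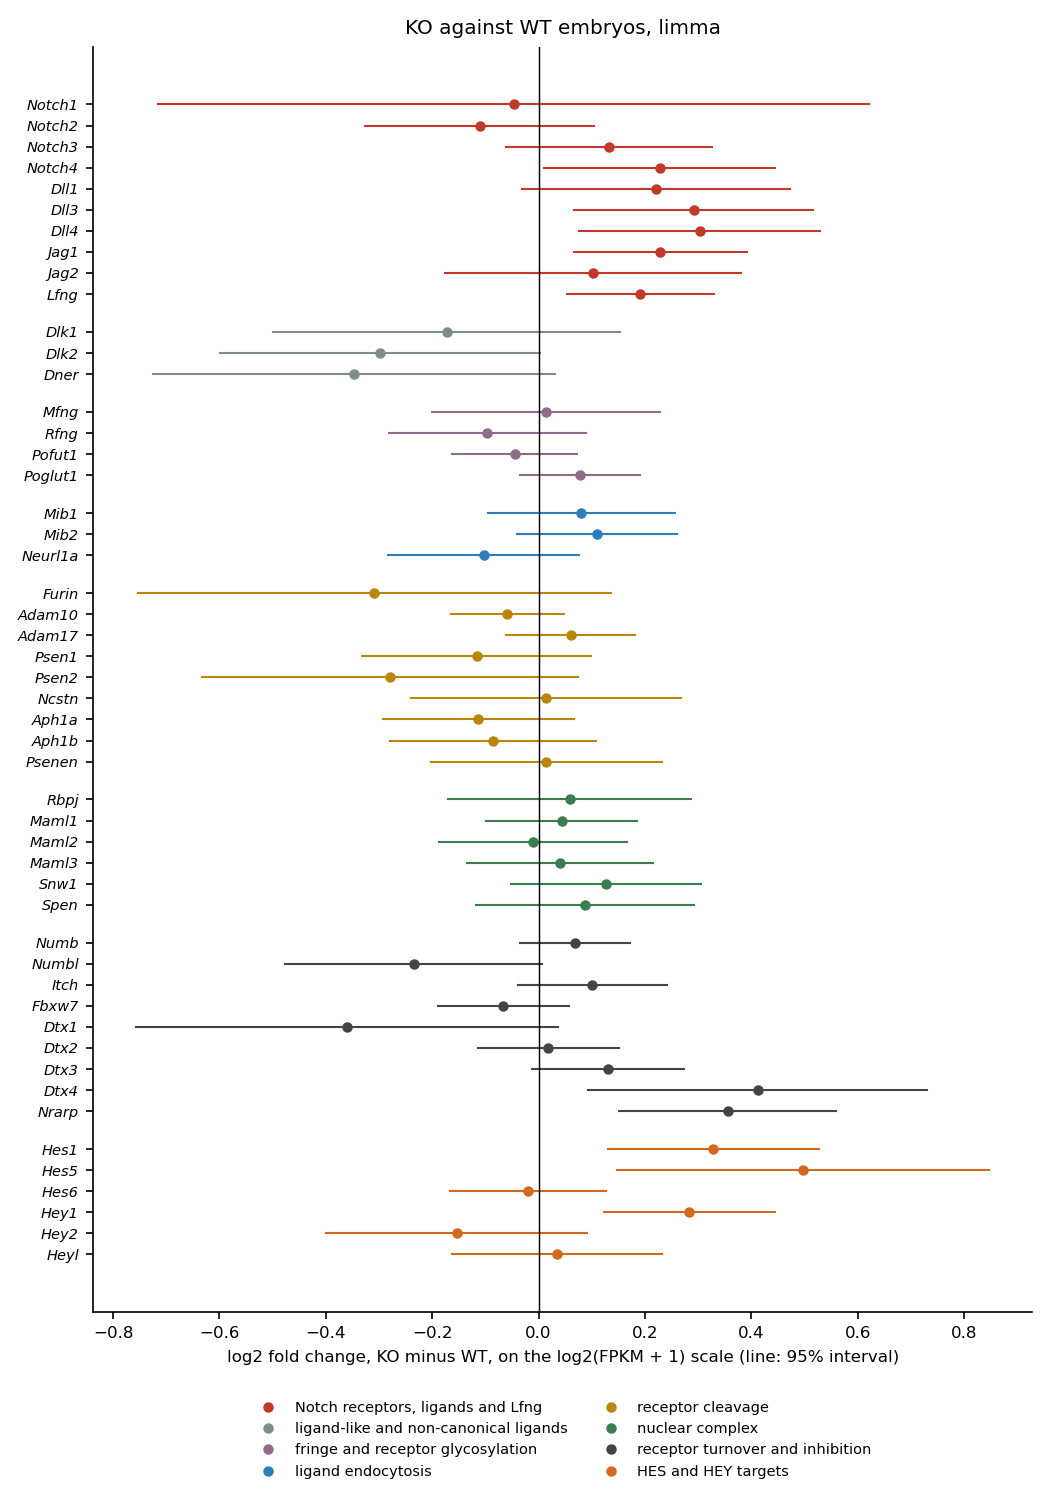
Points give the difference between KO and WT embryos in log2(FPKM + 1) (horizontal axis) for the 10 members and 40 other pathway genes (vertical axis, colored by role), and lines give the 95% interval of limma without adjustment for the number of genes. The intervals of Notch4, Dll3, Dll4, Jag1, Lfng, Dtx4, Nrarp, Hes1, Hes5 and Hey1 lie to the right of 0, and those of the receptor-cleaving enzymes and the nuclear complex cross it.

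Of these 5 genes, Hes1, Hes5, Hey1 and Nrarp are known to be switched on by the pathway. Hes1, a repressor that holds back neurogenesis, measured 39.9, 41.8 and 49.4 FPKM in KO and 31.9, 35.9, 36.1 and 34.1 FPKM in WT embryos, with no overlap. The log2 fold change was 0.33 (SE 0.08, adjusted p = 0.293, limma). Hey1, a related repressor of arterial endothelium and somites, was at 23.8, 22.6 and 25.3 FPKM against 18.8, 20.8, 18.0 and 20.2 FPKM, also with no overlap (log2 fold change 0.28, SE 0.07, adjusted p = 0.286, limma).

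Hes5, the neural progenitor target, measured 84.8, 108 and 112 FPKM in KO and 72.5, 61.9, 64.1 and 89.0 FPKM in WT embryos. KOAC10-2 exceeded the lowest KO embryo, so that the groups overlapped despite a log2 fold change of 0.50 (SE 0.15, adjusted p = 0.345, limma). Nrarp, a target that feeds back on the receptor's intracellular domain, was at 34.8, 33.5 and 39.6 FPKM against 26.0, 27.2, 26.8 and 31.6 FPKM, with no overlap (log2 fold change 0.36, SE 0.09, adjusted p = 0.286, limma). Dtx4, a Deltex ubiquitin ligase, was at 24.2, 20.2 and 30.6 FPKM against 18.1, 18.2, 16.6 and 20.3 FPKM, and the KO embryo KOAC10-5 lay below the WT embryo KOAC10-2 (log2 fold change 0.41, SE 0.14, adjusted p = 0.359, limma).

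KOAC10-8 had the highest value of all 7 embryos for each of these 5 genes. With a common sum it was highest for Hes1, Nrarp and Dtx4, KOAC10-5 for Hes5 and KOAC8-6 for Hey1. The other tested genes of the Hes and Hey families had differences near or below 0. Hey2 had a log2 fold change of -0.15 (SE 0.10), Heyl one of 0.03 (SE 0.08) and Hes6 one of -0.02 (SE 0.06), none with an unadjusted p under 0.05. Hes7, the oscillating repressor of the segmentation clock, was at 0.247 to 0.462 FPKM in all embryos and was not tested. Hes3 was also under the filter and not tested. It was at 0.617 to 1.42 FPKM in the KO embryos and 0.324 to 0.524 FPKM in the WT embryos, with no overlap.

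**Figure D4:**
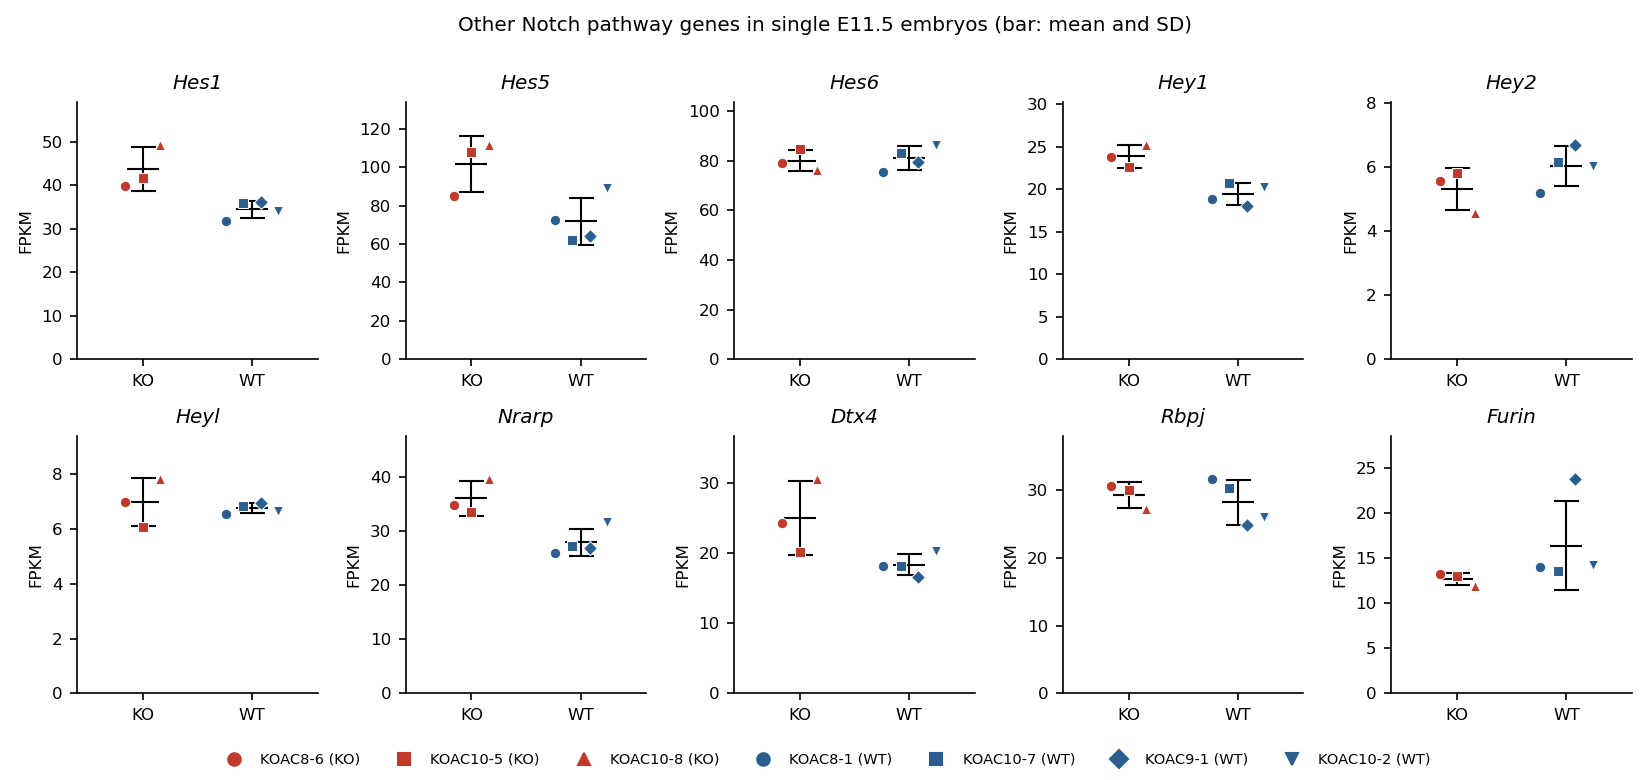
Each panel plots the FPKM of 1 other gene of the pathway (vertical axis, from 0) in the 3 KO embryos (red) and the 4 WT embryos (blue), with the mean and SD in black. Hes1, Hey1 and Nrarp separate the groups, the groups overlap for Hes5 and Dtx4 in 1 WT embryo, and Hes6, Hey2, Heyl and Rbpj overlap widely.

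The genes of the steps between ligand and target had medians near 0. Rbpj measured 27.1 to 30.6 FPKM in KO and 24.8 to 31.6 FPKM in WT embryos (log2 fold change 0.06, SE 0.10), and the 6 genes of the nuclear complex had a median of 0.05. The 9 tested genes of receptor cleavage, among them the proteases Adam10 and Adam17 and the γ-secretase subunits, had a median of -0.09, and the 4 other glycosylation genes one of -0.02. The ligand-like proteins Dlk1, Dlk2 and Dner had negative differences, of -0.17, -0.30 and -0.35, with overlapping groups. Furin, which cuts the receptor precursor, was below all WT values in the KO embryos, and the WT embryo KOAC9-1 at 23.8 FPKM stood far above the other WT embryos at 13.6 to 14.2 FPKM.

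Markers of the cells that carry Notch genes were set beside these values. The counts of each marker list stand beside shares of 5.27% higher and 6.19% lower over all genes tested, at an unadjusted p under 0.05 (limma). Of 8 neural progenitor markers, 6 were higher in the KO embryos at an unadjusted p under 0.05 and 0 were lower, with a median log2 fold change of 0.35. Their summed FPKM ran from 1437 to 1671 in the KO embryos and from 1256 to 1450 in the WT embryos. Vim and Fabp7 made up most of this sum. Vim was at 742 to 880 FPKM in the KO embryos and 632 to 741 FPKM in the WT embryos. Sox2 was at 53.4 to 74.5 FPKM against 39.9 to 50.3 FPKM, and Pax6 at 25.9 to 34.3 FPKM against 19.5 to 23.8 FPKM. None of the 8 markers was at 0 in any embryo, and KOAC10-8 had the highest sum. Fabp7 alone had a negative difference, at 345 to 387 FPKM against 336 to 403 FPKM. Of 6 proneural factors, which activate Delta genes, 1 was higher and 0 were lower, with a median of 0.25, and of 10 neuron markers 0 were higher or lower, with a median of -0.04. The part of these cells in the values of Dll1, Dll3, Lfng, Hes1 and Hes5 was not tested.

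Endothelial markers were set beside Dll4 and Notch4. Of 9 genes, 2 were higher in the KO embryos at an unadjusted p under 0.05 and 0 were lower, with a median of 0.10, and their sum was 198 to 216 FPKM in the KO embryos and 191 to 199 FPKM in the WT embryos. Kdr, a receptor for VEGF, had the largest difference of the 9, at 15.5 to 16.4 FPKM against 13.6 to 14.0 FPKM. The junction genes Cldn5 and Cdh5 had negative differences, of -0.16 and -0.01, with overlapping groups. Of 6 arterial markers, 3 were higher and 0 were lower, with a median of 0.13, and their sum was 87.6 to 91.6 FPKM against 83.3 to 86.0 FPKM. None of these markers was at 0. The log2 fold changes were 0.30 (SE 0.10) for Dll4 and 0.23 (SE 0.09) for Notch4. The largest was 0.19 (SE 0.05, Kdr) among the 9 endothelial markers and 0.21 (SE 0.10, Sox17) among the 6 arterial markers. The part of endothelial cells in the Dll4 and Notch4 values was not tested.

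Of 7 mural cell markers, beside which Notch3 and Jag1 are read, 0 were higher and 3 were lower in the KO embryos, with a median of -0.24 and sums of 81.0 to 106 FPKM against 121 to 151 FPKM. The 3 were Acta2, Tagln and Cspg4, and Acta2, the smooth muscle actin gene with the largest share of the sum, was at 31.1 to 47.8 FPKM against 61.3 to 80.7 FPKM. Rgs5 was also negative with overlapping groups, while Pdgfrb, Kcnj8 and Abcc9 had differences of 0.07 or less above 0. The differences of Notch3 and Jag1 were positive, and the part of mural cells in their values was not tested.

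For the segmenting mesoderm, where Dll1, Dll3 and Lfng are known to act, the tail that carries the presomitic mesoderm had been removed to an extent the labels do not give. Of 10 markers of this tissue, 8 were among the genes of the table and 4 passed the filter. Tbx6 was at 0.569 to 0.772 FPKM, Mesp2 at 0.108 to 0.176 FPKM and Ripply2 at 0.251 to 0.675 FPKM in all 7 embryos. Uncx, which marks formed somites, was at 11.3 to 13.8 FPKM and T at 0.646 to 1.48 FPKM. Of the 4 genes tested, 2 were higher in the KO embryos at an unadjusted p under 0.05, Fgf8 (4.64 to 7.76 FPKM against 2.21 to 3.92 FPKM) and Wnt3a (2.00 to 2.23 FPKM against 1.52 to 1.64 FPKM), which are also expressed outside this tissue. Their part in the values of Dll1, Dll3 and Lfng was not tested.

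Marker lists of other tissues are given for comparison. Of 9 erythroid markers 5 were lower in the KO embryos at an unadjusted p under 0.05, with a median of -0.57 and a sum of 16604 to 21314 FPKM against 24345 to 31707 FPKM. Of 7 skeletal muscle markers 5 were lower, with a median of -0.54 and a sum of 169 to 189 FPKM against 225 to 277 FPKM. Of 8 liver and yolk sac markers 1 was lower, Ttr, at 14.4 to 15.3 FPKM against 32.3 to 53.1 FPKM. Ttr did not follow Afp, as it was at 15.3, 32.3 and 35.3 FPKM in KOAC10-5, KOAC10-7 and KOAC10-2, the embryos of low Afp. The groups overlapped for the other markers of this list. The part of these tissues in the values of the members was not tested. When the values were rescaled to a common sum or by median-ratio size factors, the same 5 members were higher at an unadjusted p under 0.05. Of all genes, 9.63% and 11.5% had such a p in these 2 fits, in either direction.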

How the data were processed

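RNA from 7 whole E11.5 embryos (3 KO, 4 WT, by the genotype in the labels) was made into libraries with the TruSeq RNA v2 kit. The authors deposited 1 FPKM value per gene and embryo (fragments per kilobase of transcript, scaled to depth), and 0 FPKM columns were left unmapped. The authors also deposited a mean signal per gene, used here for the depth estimate, and their own log2 fold changes, standard errors and p-values, which were not used. The submitters' processing notes name Salmon, DESeq2, MultiQC and GRCm38, without their roles or settings, and how strand was treated in counting is not given in the sources used here.

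Genes whose mean was 1 FPKM or more were tested on log2(FPKM + 1), which understates changes of low genes, with limma 3.58.1 in R 4.3.3 (lmFit, eBayes with a trend). P-values were adjusted over all 16095 genes by the Benjamini-Hochberg method and called under 0.05. Exact permutation tests (two-sided) ran over the 35 choices of 3 of 7 embryos. No count test was run, since the table holds FPKM. The procedure was tested on simulated data, with changes larger than the difference of any member. That test does not show how often differences of the members' size would be called. Relative depth came from the steps between FPKM values of genes with low counts, of which 54.0% to 78.9% per embryo fell within 0.05 of a whole count. The depth is thus an estimate.

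The members, the 44 other pathway genes and the marker lists were chosen with earlier results of these data known. Named were all members, Slmap, pathway genes with an unadjusted p under 0.05 and a set of targets, members of the lists, and the 3 genes most like each of the 4 members with the largest SD. Other pathway genes and markers whose groups did not overlap, and Afp, Hes6, Furin, Hes3 and Hes7, were named after their values were seen. Positions and shared stretches of 50 bases came from GENCODE M21 (GRCm38) and promoters from RefSeq (GRCm38.p6). Alternatives were a pseudocount of 0.1, no filter, a minimum mean of 5 FPKM, a common sum, median-ratio size factors, the KOAC label as a block, Afp as a covariate, robust eBayes, embryo weights and leaving out each embryo. Leaving out the 3 embryos with the lowest Afp, and counting members by unadjusted p under each alternative, were added after seeing the data. The first of these kept only KOAC8-6 and KOAC10-8 (KO) and KOAC8-1 and KOAC9-1 (WT).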

Additional observations from a re-analysis of the deposited data

Results flagged for a closer look

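Among 76 named or listed genes, 6 had 1 WT embryo far from the other 3, by a gap above Dixon's 95% limit as a share of the range of the 4 WT embryos, and chance flags about 1 in 20 groups, here 3.8. None of the 6 was a Notch receptor, a DSL ligand or Lfng. The WT embryo KOAC9-1 was far above the others for Furin (gap of 0.938 of the range) and Snw1 (0.896), and far below them for Mib1 (0.900), the ligase that drives ligand endocytosis. The WT embryo KOAC8-1 was far below the others for Psenen (0.970), a γ-secretase subunit, for Dtx3 (0.927) and for the presomitic factor Tbx6 (0.927). Without KOAC9-1, Furin was left with WT values of 13.6 to 14.2 FPKM, above the KO values of 11.9 to 13.2 FPKM.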

How the results depend on the processing

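Under all 17 alternatives 0 of the 10 members and 0 of the other pathway genes had an adjusted p under 0.05 (limma), and the adjusted p of a member was at least 0.184. The number of all genes called, 6 as reported, was 10 with Afp as a covariate and 17 without the 3 embryos with the lowest Afp, and ran from 7 to 12 when 1 embryo was left out. The number of members with an unadjusted p under 0.05 was 5 as reported and 2 to 6 when 1 embryo was left out, lowest without KOAC10-8, while the share of all genes with such a p, 11.5% as reported, ran from 7.80% without KOAC10-8 to 16.4% without KOAC10-5. The log2 fold change of Notch1, -0.05 as reported, was 0.075 with Afp as a covariate, 0.34 without the 3 embryos with the lowest Afp, and -0.31 to 0.10 when 1 embryo was left out. It was positive without KOAC10-8 (0.01), KOAC10-7 (0.10) or KOAC10-2 (0.08). That of Jag2 ran from -0.00370 to 0.16 when 1 embryo was left out. The cause of these changes was not tested. The other 8 members kept their direction in every fit, which groups without overlap fix for 5 of them when embryos are left out, and Dll4 gave no value at a minimum mean of 5 FPKM. With the KOAC label as a block, 4 members had an unadjusted p under 0.05, Notch4 being lost, as did 8.69% of all genes. In that fit 7 genes in all were called. The replicates carry no numbers shared between the groups, so embryos were not paired one to one.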

Other observations

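For the 4 members that varied most over the 7 embryos, the genes with the most similar pattern were sought among 11497 genes whose mean was 5 FPKM or more, by the Pearson correlation of log2(FPKM + 1). The nearest to Notch1 were Gm48667 (r = 0.98), Smchd1 (0.97), a chromatin protein of X inactivation and imprinting, and Gm9269 (0.96). Gm48667 reached 31.6 FPKM in the WT embryo KOAC9-1, 72.6 FPKM in KOAC10-7 and 80.2 FPKM in KOAC10-2, which are the lowest and the 2 highest embryos for Notch1 too. The nearest to Dll4 were Ergic2 (0.99), Nhlh2 (0.99), a basic helix-loop-helix factor of neurons, and Zfp62 (0.99). The nearest to Dll3 were Otx1 (0.97), a forebrain homeobox factor, Sh3bgr (0.97) and Cd93 (0.96), a surface protein of endothelium. The nearest to Dll1 were Schip1 (0.97), Nr2f1 (0.97), a nuclear receptor of the developing nervous system, and Mapk11 (0.97). They are the highest of many correlations over the same 7 libraries and are given as a description.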
